A study of Rattus norvegicus with 16 samples.

Results

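The cytochrome P450 genes of the rat hepatoma line H35 were taken from the array by name. Every gene probe whose name begins with Cyp and a digit was included, with the sterol demethylase Cyp51 left out. The rule uses names only, though the P450 genes were taken up with earlier results of these data known. This gave 76 genes on 93 probes, out of 26269 gene names on 30367 probes.

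Cytochromes P450 are heme proteins that insert an oxygen atom into their substrates. Most sit in the endoplasmic reticulum and take electrons from P450 oxidoreductase (Por), and a few sit in mitochondria and take them from ferredoxin. In liver the Cyp1, Cyp2 and Cyp3 families oxidize drugs and other foreign compounds, the Cyp4 family hydroxylates fatty acids and eicosanoids, and single members of other families make bile acids and activate or inactivate vitamin D, retinoids and steroid hormones. Hepatocytes are the main site of many of these enzymes, and their transcription depends on liver transcription factors and on receptors that sense ligands, such as the aryl hydrocarbon receptor, the pregnane X receptor and PPARα.

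The arrays compared cells in which Pdrg1 (p53 and DNA damage regulated 1) was silenced with control cells. RNA of 4 groups was hybridized to one-color arrays, with 4 biological replicates per group. All cells were H35 carrying a plasmid for a short hairpin RNA (shRNA) and for G418 resistance, and all went through 2 weeks of selection in G418 at 1.8 mg/ml, which began 48 h after transfection. CN-10 is a stable clone with the negative control shRNA, 4-18 is a stable clone with shRNA4 against Pdrg1, and 3-44 is a stable clone with shRNA3 against Pdrg1. shRNA3T is a pool of cells transfected with shRNA3 and enriched by that first selection only, whereas the 3 clones had 2 additional weeks at 4 mg/ml. Each stable group is 1 clone, so the effect of silencing and the difference between clones cannot be told apart. The 4 arrays of a group sat together on 1 slide, and the 4-18 slide had a scan date of its own. Neither slide nor scan can be told apart from the group.

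Levels below are normalized log2 intensities, which can be compared between arrays for 1 probe but not between probes. A probe was well above background where the scanner software marked its signal so. A gene was called where a probe differed at least 2-fold with an adjusted p under 0.05 (limma, Benjamini-Hochberg over all probes), and "rose" and "fell" are used for called genes only. The mean level of Pdrg1 in 4-18 differed from the control by -0.77 on the log2 scale (adjusted p = 0.129, limma). The values were -0.99 for 3-44 (adjusted p = 0.105) and -0.85 for the pool (adjusted p = 0.143). No Pdrg1 value of a silenced group reached the lowest of CN-10, and none of these differences was called. In all 4 groups, CN-10 included, replicate 1 was the lowest array for Pdrg1. The limma fit behind the adjusted p values above had no term for the replicate number. A shift shared by the replicate 1 arrays therefore counts as error there, and the missing calls do not show that Pdrg1 was unchanged. Lower expression of the target gene in both silenced clones is reported by the study from real-time RT-PCR. Without 4-18 replicate 1, at 11.57 where the other 4-18 arrays were at 13.25 to 13.34, the 4-18 difference was -0.33 (adjusted p = 0.349, limma), and the unchanged differences of 3-44 and the pool had an adjusted p of 0.0086 and 0.0149, still under the 2-fold limit. Without their own replicate 1, 3-44 read -0.74 and shRNA3T -0.72. Probes well above background were fewer in 4-18, at 53.1% to 64.1% of spots per array, than in CN-10 (66.8% to 70.6%), 3-44 (65.8% to 74.3%) and shRNA3T (64.7% to 70.9%). Of 10 hepatocyte markers, 7 were well above background on all 16 arrays and Apoh was on none. The mean log2 level of that marker list ranged from 12.98 to 13.14 in CN-10, from 12.65 to 13.03 in 4-18, from 13.24 to 13.94 in 3-44 and from 13.36 to 13.61 in shRNA3T. The called markers did not move one way. Ttr, the thyroid hormone carrier, rose in all 3 silenced groups, by 2.93, 2.84 and 2.39 in 4-18, 3-44 and shRNA3T. Apoa1, the apolipoprotein of HDL, fell in 4-18 by 2.12 and rose in 3-44 by 2.18, Tf (transferrin) fell in 4-18 2.83-fold, and Serpina1 and Fgb rose in shRNA3T 2.82-fold and 2.24-fold. The probes of Ahsg were called in opposite directions in 4-18. Of the markers of other cell types, 0 of 4 for bile duct, 1 of 3 for endothelium, 0 of 3 for leukocytes and 1 of 4 for fibroblasts or stellate cells were well above background on all 16 arrays. Epcam, Pecam1 and Ptprc, which define bile duct cells, endothelium and leukocytes, were well above background on no array. Krt19, a keratin of bile duct cells, was so on all 4 CN-10 arrays and on no silenced array, and all silenced arrays lay below CN-10. It was not called and read -0.33 in 4-18 (adjusted p = 0.0431, limma), -0.54 in 3-44 (adjusted p = 0.00694) and -0.52 in the pool (adjusted p = 0.00527). The silenced values of Krt19 lie near background, so the size of these differences is uncertain. Cdh5 and Col1a1 were so on all 16, and Sox9, Cd68, Col1a2, Acta2 and Des on all but 1 array, of 4-18. Des (desmin), a stellate cell marker, fell in 4-18 by 1.17 (adjusted p = 4.54e-05, limma) and read -0.81 in 3-44 (adjusted p = 0.00358) and -0.98 in the pool (adjusted p = 0.000511), with no overlap with CN-10. The part of the marker shift and of the dimmer 4-18 arrays in the P450 values was not tested.

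Detection on every array was less common for P450 genes than for all genes. A probe was well above background on all 16 arrays for 20 of the 76 genes (26.3%), against 45.7% of all gene names. The count is set largely by the dimmer 4-18 arrays, where 21 genes passed on all 4 arrays, against 38 in CN-10 and 42 in each shRNA3 group. The 20 were Cyp1a2, Cyp1b1, Cyp2b2, Cyp2b3, Cyp2c23, Cyp2d1, Cyp2d4, Cyp2d5, Cyp2f4 and Cyp2t1 among the enzymes of foreign compounds, and Cyp4a8, Cyp4f1, Cyp4f5, Cyp4f6, Cyp4f17 and Cyp4f40 among those of fatty acids. The remaining ones were Cyp27a1 of bile acid synthesis, Cyp27b1 of vitamin D activation, Cyp21a1 of steroid hormone synthesis and Cyp20a1, to which no role was assigned. For 12 genes (15.8%, against 17.2% of all gene names) no array had a probe well above background: Cyp2a2, Cyp2a3, Cyp2b21, Cyp2c13, Cyp2g1, Cyp2j3, Cyp3a2, Cyp4f4, Cyp7b1, Cyp11b1, Cyp24a1 and Cyp39a1. The list holds Cyp2c13 and Cyp3a2, which are known as P450s of male rat liver, and Cyp7b1 and Cyp39a1, which are oxysterol hydroxylases of bile acid synthesis. The other 44 genes were well above background on some arrays. By role, all 16 arrays were reached by 10 of 36 genes for foreign compounds, 6 of 21 for fatty acids and eicosanoids, and 1 of 6 in each of bile acids and sterols, steroid hormones, and vitamin D and retinoids.

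**Figure D1:**
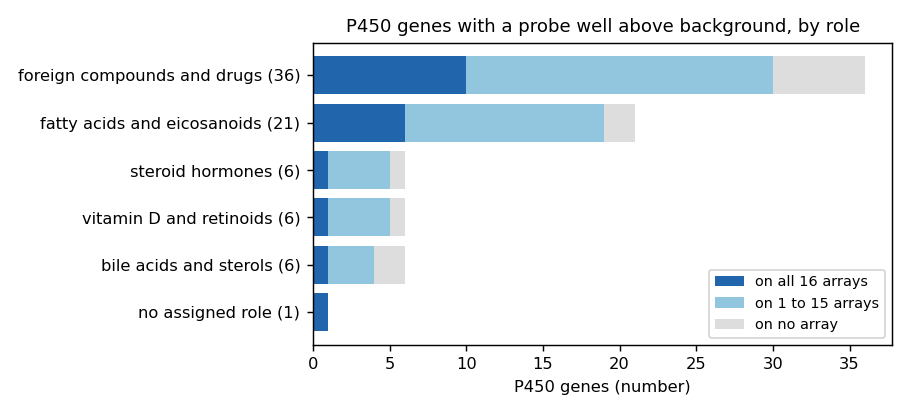
Number of P450 genes (x axis) by role (y axis), split into genes with a probe well above background on all 16 arrays, on some arrays and on none. The foreign compound enzymes form the largest role with 36 genes, of which 10 reached all 16 arrays and 6 reached none.

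Fewer P450 genes were detected in 4-18 than in the other groups. Per array, 24 to 47 of the 93 probes passed in 4-18, 46 to 55 in CN-10, 53 to 59 in 3-44 and 54 to 68 in shRNA3T. The lower count in 4-18 goes with its lower share of spots above background over the whole array, and how much of it is particular to P450 genes was not tested.

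In the main analysis a larger share of P450 genes than of all gene names was called in each comparison. With the authors' series values the shares for 4-18 against CN-10 were close, at 13.2% of P450 genes and 12.1% of all gene names. In 4-18 against CN-10, 13 P450 genes (17.1%) were called, beside 6.52% of all gene names. Of these 13, 9 rose and 4 fell, where 2.79% of all gene names rose and 3.73% fell. This balance depended on the scaling and was 15 and 12 with the processed signal, 50 and 1 with normexp scaled to the 75th percentile, and 4 and 6 with the log2 values of the authors' series table. In 3-44 against CN-10, 7 genes (9.21%) were called beside 1.57% of all gene names, 6 up and 1 down beside 0.746% up and 0.826% down. In shRNA3T against CN-10, 13 genes (17.1%) were called beside 2.49% of all gene names, 10 up and 3 down beside 1.23% up and 1.25% down. The shares of P450 genes above the background are descriptions, since genes of a subfamily are alike in sequence and often regulated together.

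The median P450 gene lay near 0. Its log2 fold change was -0.01 in 4-18, 0.04 in 3-44 and 0.09 in shRNA3T, beside 0.00, -0.01 and -0.01 over all gene names. By subfamily the medians of the 5 Cyp2d genes were 0.98 in 4-18, 1.60 in 3-44 and 1.80 in shRNA3T, and those of the 4 Cyp4a genes were -0.17, 0.25 and 1.16. Called against CN-10 in at least 1 silenced group were 22 genes. Of these, 13 were called in 1 comparison, 7 in 2 and 2 in all 3, and 3 were called in opposite directions in different groups. These counts were not made for all gene names, so whether they are high for this array is not shown. The 2 genes called in all 3 comparisons were Cyp2d5, higher in each, and Cyp4a8, whose probes moved differently. The 3 comparisons share the CN-10 arrays, so their counts are not independent of each other. Of 35 called pairs of a probe and a comparison with CN-10, 20 lost the call in at least 1 alternative. Most of these losses came with the unscaled series values (Cyp1b1, Cyp2d4, Cyp2d5, Cyp2f4, Cyp27b1 and Cyp3a18 in 4-18, Cyp2d2, Cyp3a18, Cyp3a62 and Cyp4a8 in 3-44, and Cyp2d2, Cyp3a9, Cyp4a1 and Cyp4f1 in shRNA3T). Other scalings ended the calls of Cyp1b1, Cyp2d4, Cyp2s1, Cyp3a18, Cyp4a8, Cyp4f39 and Cyp8b1 in 4-18, Cyp2b3, Cyp3a62 and Cyp4a8 in 3-44, and Cyp3a9, Cyp4f1 and Cyp4f40 in shRNA3T.

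**Figure D2:**
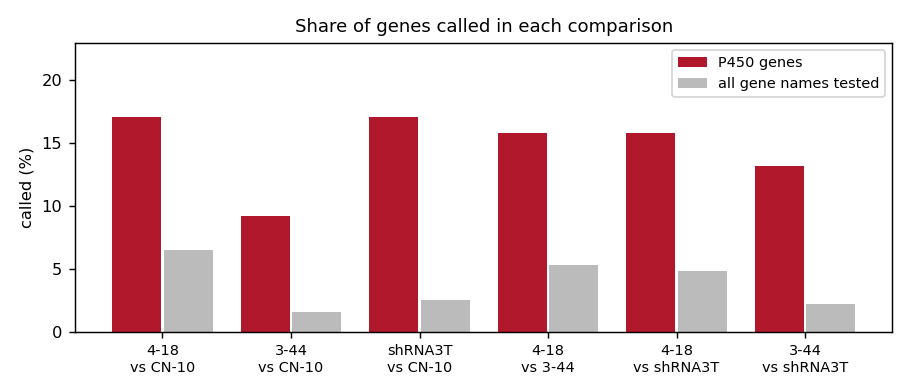
Percent of genes called (y axis) in each of the 6 comparisons (x axis), for P450 genes and for all gene names on the array. The P450 share lies between 9.21% and 17.1%, and the share of all gene names between 1.57% and 6.52%.

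**Figure D3:**
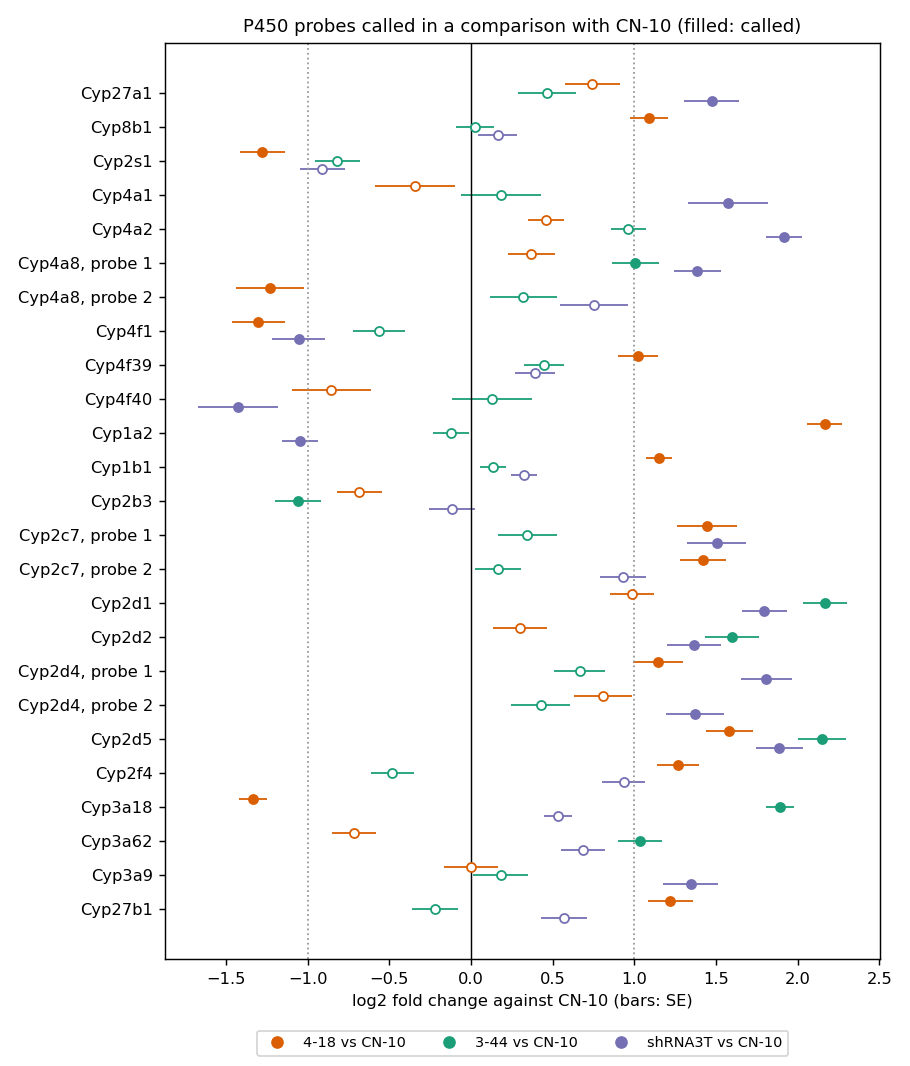
Fitted log2 fold change against CN-10 (x axis, bars are SE) for each P450 probe called in at least 1 comparison with CN-10 (y axis), with 1 colour per silenced group, filled markers where the difference was called and dotted lines at the 2-fold limit. The Cyp2d genes lie to the right in all 3 groups, and Cyp1a2 and Cyp3a18 lie on opposite sides of 0 in different groups.

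The Cyp2d subfamily, which oxidizes many basic drugs, rose in 2 of its 5 genes in 4-18, in 3 in 3-44 and in 4 in shRNA3T. These counts include the probes of both Cyp2d1 and Cyp2d5, which are alike in sequence. Taken as 1 measurement of 4, they leave counts of 2, 2 and 3, and without Cyp2d1 the medians of the subfamily were 0.72, 1.13 and 1.59. Cyp2d5 was the only P450 gene with 1 probe called in the same direction in all 3 comparisons, and it is among the genes the study listed from these same arrays, so its call here is not independent evidence. The 5 Cyp2d genes lie beside each other on chromosome 7 of the array's build, rn4. The Cyp2d5 probe (chr7:120760436-120760495, minus strand) and the Cyp2d1 probe (chr7:120769703-120769762, minus strand) share a run of 55 of their 60 bases. The last 30 bases of both are shown because their values cannot be taken as separate measurements, with the bases after the shared run in capitals.
Cyp2d1: ctgagccacgtttaataaaccagtcttTTG
Cyp2d5: gagccacgtttaataaaccagtcttGAGGC
Among all 4278 pairs of P450 probes, only 1 other pair, of 2 probes for Cyp2b15, shared a run of 20 or more bases (25 bases). No Cyp2d1 or Cyp2d5 value can therefore be assigned to 1 of the 2 genes alone.

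The level of Cyp2d5 on the CN-10 arrays was 11.56, 11.74, 11.67 and 11.68. On the 4-18 arrays it was 13.08, 13.74, 13.09 and 13.07. It was 14.00, 13.72, 13.81 and 13.71 on the 3-44 arrays and 13.89, 13.42, 13.44 and 13.45 on the shRNA3T arrays. Every silenced array lay above every CN-10 array, and the 3 silenced groups overlapped. Cyp2d5 rose 2.99-fold in 4-18 (log2 1.58 ± 0.14 SE, adjusted p = 1.6e-06, limma). It rose 4.43-fold in 3-44 (log2 2.15 ± 0.14, adjusted p = 3.01e-07) and 3.70-fold in shRNA3T (log2 1.89 ± 0.14, adjusted p = 8.4e-07).

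The level of Cyp2d1 was 12.04, 11.83, 11.74 and 11.66 in CN-10 and 13.18, 12.73, 12.40 and 12.90 in 4-18. In 3-44 it was 14.20, 13.84, 13.98 and 13.90, and in shRNA3T it was 13.63, 13.56, 13.56 and 13.69. The groups did not overlap, and the order from low to high was CN-10, 4-18, shRNA3T and 3-44. Cyp2d1 rose 4.49-fold in 3-44 (log2 2.17, adjusted p = 1.47e-07, limma) and 3.47-fold in shRNA3T (log2 1.80, adjusted p = 8.05e-07). In 4-18 the difference was 1.98-fold (log2 0.98, adjusted p = 8.43e-05) and stayed just under the 2-fold limit. The direct comparison called Cyp2d1 lower in 4-18 than in 3-44 by 1.18 on the log2 scale (adjusted p = 1.75e-05).

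Cyp2d2, whose probe lies at chr7:120798606-120798665 on the minus strand, was at 7.01, 7.50, 7.22 and 7.42 in CN-10 and at 7.45, 7.43, 7.28 and 8.17 in 4-18. It was at 9.13, 8.83, 8.77 and 8.81 in 3-44 and at 8.53, 8.67, 8.63 and 8.79 in shRNA3T. CN-10 and 4-18 overlapped, and both shRNA3 groups lay above them. Cyp2d2 rose 3.03-fold in 3-44 (log2 1.60 ± 0.17 SE, adjusted p = 2.64e-05, limma) and 2.58-fold in shRNA3T (log2 1.37, adjusted p = 5.74e-05), and its difference in 4-18 was 0.30 (adjusted p = 0.23). It was lower in 4-18 than in 3-44 by 1.30 and lower than in shRNA3T by 1.07, both called.

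Cyp2d4, a P450 known from brain as well as liver, had another order of groups. Its brighter probe (chr7:120743218-120743277, minus strand) read 9.29, 9.23, 8.91 and 9.28 in CN-10 and 10.61, 10.57, 9.84 and 10.27 in 4-18. In 3-44 it read 9.58, 9.89, 10.07 and 9.83, and in shRNA3T 11.14, 10.85, 10.92 and 11.02. All silenced arrays lay above CN-10, 4-18 and 3-44 overlapped, and shRNA3T lay above both. Cyp2d4 rose 2.21-fold in 4-18 (log2 1.14 ± 0.16 SE, adjusted p = 6.95e-05, limma) and 3.50-fold in shRNA3T (log2 1.81, adjusted p = 2.56e-06). The difference in 3-44 was 0.67 (adjusted p = 0.0153), under the 2-fold limit. A second probe gave the same order, with log2 differences of 0.81 in 4-18, 0.43 in 3-44 and 1.37 in shRNA3T, of which the last was called (adjusted p = 0.000112). Cyp2d3 was near background in all groups with differences of -0.04, 0.06 and 0.24 for 4-18, 3-44 and shRNA3T.

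Sequence before the start sites of the Cyp2d genes is shown because the members that rose are alike there in part only. Of the 76 genes, 59 had an entry in the RefSeq promoter table (build GRCr8), whose 250 bases upstream of each start were searched on both strands for 4 motifs. The aligned 74 bases of Cyp2d5 (chr7:115784550-115784623), Cyp2d1 (chr7:115793458-115793531) and Cyp2d3 (chr7:115802166-115802239) were matched by sequence. For Cyp2d2 (chr7:115819282-115819355) and Cyp2d4 (chr7:115771822-115771895) the 74 bases next to the start are given. All genes are on the minus strand, sequences run 5′ to 3′ along the gene, and capitals mark the letters TATAAA on either strand.
Cyp2d5: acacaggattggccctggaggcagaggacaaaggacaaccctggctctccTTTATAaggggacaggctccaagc
Cyp2d1: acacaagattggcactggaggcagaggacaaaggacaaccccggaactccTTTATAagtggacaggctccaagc
Cyp2d3: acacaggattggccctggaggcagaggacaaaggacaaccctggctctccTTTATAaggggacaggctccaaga
Cyp2d2: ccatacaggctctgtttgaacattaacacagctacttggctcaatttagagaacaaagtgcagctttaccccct
Cyp2d4: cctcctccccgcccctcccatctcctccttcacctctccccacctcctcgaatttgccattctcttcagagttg
Cyp2d5 and Cyp2d1 were identical at 68 of the 74 bases (91.9%) and Cyp2d5 and Cyp2d3 at 73 (98.6%), although Cyp2d3 did not move with the other members. The windows of Cyp2d2 and Cyp2d4 hold no TATAAA in either direction. These matches describe the sequence and say nothing of which factor acts there.

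Cyp1a2, the P450 of liver that oxidizes caffeine and aromatic amines, moved in opposite directions in different groups. Its probe lies at chr8:61439236-61439295 on the minus strand. The levels were 8.60, 8.57, 8.63 and 8.53 in CN-10, 10.91, 10.86, 10.73 and 10.49 in 4-18, 8.76, 8.47, 8.41 and 8.19 in 3-44, and 7.56, 7.47, 7.56 and 7.56 in shRNA3T. The 4-18 arrays were the highest and the shRNA3T arrays the lowest, with no overlap, while CN-10 and 3-44 overlapped. Cyp1a2 rose 4.48-fold in 4-18 (log2 2.16 ± 0.11 SE, adjusted p = 2.59e-09, limma) and fell 2.07-fold in shRNA3T (log2 -1.05, adjusted p = 1.52e-05). The difference in 3-44 was -0.12 (adjusted p = 0.607). In the direct comparison 4-18 was 9.26-fold above shRNA3T (log2 3.21, adjusted p = 4.74e-11), the widest gap of any P450 probe well above background in both groups.

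The 100 bases before the RefSeq start of Cyp1a2 (GRCr8, chr8:66978150-66978249, minus strand) are shown because Cyp1a2 had this widest gap. Capitals mark TATAAA and the letters AGGTCA, which many nuclear receptors read, here as its complement TGACCT.
Cyp1a2: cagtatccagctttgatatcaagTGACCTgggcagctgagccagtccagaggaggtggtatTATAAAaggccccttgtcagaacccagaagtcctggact
The core letters of the aryl hydrocarbon receptor site, GCGTG, were not in the 250 bases upstream. Sequence further from the start was not searched, so this absence does not bear on sites there.

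The other Cyp1 genes did not follow Cyp1a2 in every group. Cyp1b1, which oxidizes polycyclic hydrocarbons and estrogens, ranged from 6.80 to 6.91 in CN-10, from 7.94 to 8.08 in 4-18, from 6.75 to 7.18 in 3-44 and from 7.16 to 7.23 in shRNA3T. The 4-18 arrays stood above the rest, and Cyp1b1 rose 2.22-fold there (log2 1.15 ± 0.08 SE, adjusted p = 8.99e-08, limma). The values in 3-44 (0.13) and shRNA3T (0.33) were not called. Cyp1a1, the classical target of the aryl hydrocarbon receptor, was well above background on 1 array of CN-10, none of 4-18, 2 of 3-44 and 3 of shRNA3T. Its differences of 0.01, 0.04 and 0.31 were not called.

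Of 7 listed genes for the aryl hydrocarbon receptor, its partners and its other targets, 6 were on the array. None was called higher in any silenced group, where 2.79%, 0.746% and 1.23% of all gene names rose in 4-18, 3-44 and shRNA3T, so a list of this size shows little. In 4-18 Ahr was well above background on 2 of 4 arrays, the target Aldh3a1 on none and the repressor Ahrr on none of the 16 arrays. Arnt, the partner of the receptor, read 0.41 in 4-18 (adjusted p = 0.00873, limma), with no overlap with CN-10 and under the 2-fold limit. Nqo1, a quinone reductase, fell in 4-18 by 1.56 on the log2 scale (adjusted p = 1.06e-06, limma) and in shRNA3T by 1.25 (adjusted p = 2.47e-05). Its value in 3-44 was -0.76. The medians of the list were 0.03, -0.00 and 0.05 in 4-18, 3-44 and shRNA3T, and Ahr itself differed by 0.02, 0.01 and 0.25.

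Cyp3a18, a steroid and drug hydroxylase of rat liver, separated both clones most. It was read by 10 spots on each array, at chr12:9087179-9087238 on the minus strand. The levels were 7.85, 7.46, 7.83 and 7.78 in CN-10, 6.42, 6.29, 6.41 and 6.46 in 4-18, 9.72, 9.59, 9.67 and 9.51 in 3-44, and 8.25, 8.26, 8.22 and 8.33 in shRNA3T. The 4 groups did not overlap. No 4-18 array was well above background, so folds against that group are bounds, computed against the lowest signal that counted as above background. Cyp3a18 was at least 2.28-fold lower in 4-18 than in CN-10 (fitted log2 -1.34, adjusted p = 3.84e-08, limma), a call that was lost with the series values, with cyclic loess and with normexp scaled to the 75th percentile, where the difference came down to -0.35. It rose 3.70-fold in 3-44 (log2 1.89, adjusted p = 5.54e-09). Between the clones, 4-18 was at least 8.44-fold below 3-44 (fitted log2 -3.23, adjusted p = 3.88e-12). The value in shRNA3T was 1.45-fold above CN-10 (log2 0.53, adjusted p = 0.000732), under the 2-fold limit, although the pool and the 3-44 clone carry the same shRNA. The direct comparison called 3-44 above shRNA3T by 2.56-fold.

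Cyp3a62 had the same order of group means as Cyp3a18. It ranged from 6.92 to 7.33 in CN-10, from 6.26 to 6.51 in 4-18, from 7.84 to 8.50 in 3-44 and from 7.73 to 7.96 in shRNA3T. It rose 2.05-fold in 3-44 (log2 1.03, adjusted p = 0.00019, limma), close to the limit, and the call was lost without CN-10 replicate 1 (1.00), without CN-10 replicate 2 (0.97), without 3-44 replicate 1 (0.92) or without 3-44 replicate 2 (0.98). In 4-18 no array was well above background, and Cyp3a62 was at least 3.02-fold below 3-44 and at least 2.37-fold below shRNA3T. Cyp3a9 rose in the pool only, 2.54-fold (log2 1.34, adjusted p = 6.96e-05), and was at 0.00 in 4-18 and 0.18 in 3-44. The pool was called above 4-18 by 2.54-fold and above 3-44 by 2.24-fold for Cyp3a9. Cyp3a2 was not detected on any array.

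**Figure D4:**
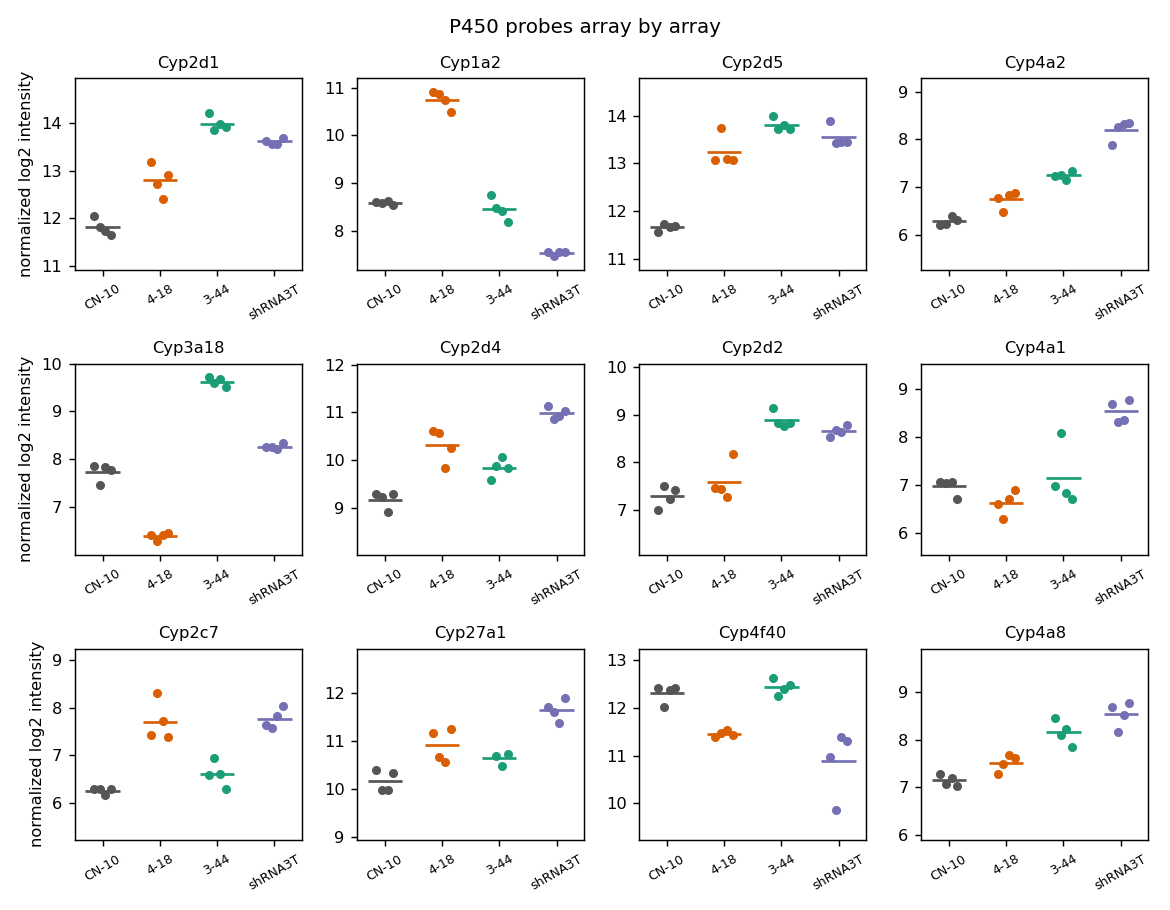
Normalized log2 intensity (y axis) of the 12 called P450 genes with the largest differences from CN-10, 1 probe and panel per gene, with 1 point per array and a line at the mean of each group (4 arrays each, 3 for Cyp27a1 in 3-44, and the dimmer probe for Cyp4a8). Cyp2d5 lies above CN-10 on all silenced arrays, and the 4-18 arrays are the highest for Cyp1a2 and the lowest for Cyp3a18.

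The other enzymes of foreign compounds differed group by group. Cyp2c7, a retinoic acid and steroid hydroxylase known from female rat liver, was at 6.29, 6.31, 6.16 and 6.30 in CN-10, where no array was well above background. It was at 7.43, 8.30, 7.72 and 7.38 in 4-18, at 6.58, 6.95, 6.61 and 6.29 in 3-44, and at 7.63, 7.58, 7.83 and 8.04 in shRNA3T. The 4-18 and shRNA3T arrays lay above all CN-10 and 3-44 arrays. Cyp2c7 was at least 2.62-fold higher in 4-18 (fitted log2 1.44, adjusted p = 3.28e-05, limma) and at least 2.73-fold higher in shRNA3T (adjusted p = 5.63e-05) than in CN-10. A second probe was at least 2.60-fold higher in 4-18 and at least 1.85-fold higher in shRNA3T, the latter not called. Another, dimmer probe read 0.52 and 0.42 and was not called. The array places the Cyp2c7 probes on chromosome 7 of rn4, whereas RefSeq places the gene on chromosome 1 of GRCr8, so their position is uncertain.

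Cyp2f4, which bioactivates naphthalene and is known from lung, rose in 4-18 by 2.41-fold (log2 1.27 ± 0.13 SE, adjusted p = 4.74e-06, limma). Its levels ran from 9.18 to 9.37 in CN-10, from 10.12 to 10.75 in 4-18, from 8.60 to 8.98 in 3-44 and from 10.07 to 10.45 in shRNA3T. The 3-44 arrays were the lowest and did not overlap any other group. The differences of 3-44 (-0.48, adjusted p = 0.0337) and shRNA3T (0.93, adjusted p = 0.000205) from CN-10 were under the 2-fold limit. Between silenced groups, Cyp2f4 was 3.36-fold higher in 4-18 than in 3-44 and 2.67-fold lower in 3-44 than in shRNA3T, both called.

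The Cyp2b subfamily, which holds the phenobarbital-inducible Cyp2b2 and other members, had 1 gene called against CN-10, in 3-44. Cyp2b3 ranged from 14.55 to 14.75 in CN-10 and from 13.46 to 13.65 in 3-44, without overlap, and fell 2.08-fold there (log2 -1.06, adjusted p = 0.000201, limma). Its values in 4-18 (-0.68) and shRNA3T (-0.12) were not called. A second Cyp2b3 probe read -0.89 in 3-44 and was called only against shRNA3T, by -1.16 for 4-18 and -1.33 for 3-44. Cyp2b2 was lower than in shRNA3T by 1.08 in 4-18 (adjusted p = 0.0287) and by 1.25 in 3-44 (adjusted p = 0.0222). For 4-18 the arrays of both groups overlapped, and the exact permutation test gave p = 0.0571, two-sided. Another Cyp2b2 probe stood at 10.08 on 3-44 replicate 2 against 6.69 as the lowest of that group, and was not called.

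For Cyp2c23, the arachidonic acid epoxygenase of rat kidney and liver, the pool was highest. The arrays ranged from 15.56 to 15.70 in CN-10, from 15.04 to 15.65 in 4-18, from 15.98 to 16.16 in 3-44 and from 16.40 to 16.67 in shRNA3T. Cyp2c23 was 1.86-fold above CN-10 in shRNA3T, under the limit, and was called 2.34-fold lower in 4-18 than in shRNA3T (adjusted p = 1.64e-06, limma). Cyp2t1 was 2.19-fold lower in 4-18 than in 3-44 (adjusted p = 0.000135) and was not called against CN-10. Cyp2e1, the ethanol-inducible P450, was well above background on no array of CN-10 or 4-18 and on all 4 arrays of 3-44 and of shRNA3T. It ranged from 6.34 to 6.36 in CN-10, from 6.67 to 6.99 in 3-44 and from 6.87 to 7.22 in shRNA3T, at least 1.38-fold and at least 1.63-fold higher, and neither difference was called.

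Among the fatty acid ω-hydroxylases of the Cyp4a subfamily, which are classical targets of PPARα in rodents, Cyp4a1 and Cyp4a2 rose in the pool. Cyp4a1 (chr5:135915634-135915693, plus strand) was at 7.06, 7.04, 7.06 and 6.70 in CN-10, at 6.59, 6.29, 6.70 and 6.89 in 4-18, at 6.97, 8.09, 6.82 and 6.70 in 3-44 and at 8.70, 8.32, 8.35 and 8.78 in shRNA3T. All shRNA3T arrays lay above all others, and 3-44 replicate 2 stood apart from its group. Cyp4a1 rose 2.97-fold in shRNA3T (log2 1.57 ± 0.24 SE, adjusted p = 0.000511, limma), with -0.35 in 4-18 and 0.18 in 3-44.

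Cyp4a2 (chr5:135547423-135547482, minus strand) was at 6.22, 6.22, 6.39 and 6.30 in CN-10, none of them well above background, and at 6.78, 6.47, 6.84 and 6.88 in 4-18. It was at 7.24, 7.25, 7.15 and 7.34 in 3-44 and at 7.89, 8.25, 8.33 and 8.33 in shRNA3T. The 4 groups did not overlap. Cyp4a2 was at least 3.68-fold higher in shRNA3T than in CN-10 (fitted log2 1.92, adjusted p = 3.54e-08, limma). In 3-44 it was at least 1.90-fold higher (fitted log2 0.96, adjusted p = 5.47e-05) and in 4-18 at least 1.34-fold (fitted log2 0.46), neither of which was called. The bases from 160 to 61 before its RefSeq start (GRCr8, chr5:134170969-134171068) are shown for the letters AGGTCA, in capitals, which PPARα and its partner RXR read in pairs.
Cyp4a2: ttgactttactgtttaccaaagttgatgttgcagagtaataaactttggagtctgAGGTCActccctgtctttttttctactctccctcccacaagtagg
Cyp4a3, which was not called, has AGGTCA at the same distance from its start, and the letters are not in the window of Cyp4a8. A single match is common: AGGTCA was in 14.1% of the 33469 promoters of the same length and in 19 of the 59 P450 promoters, 6 of them among the 25 called genes in the table.

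The probes of Cyp4a8, another member of the subfamily, did not move together. The brighter probe (chr5:135546881-135546940, minus strand) was at 12.11, 11.87, 11.92 and 11.30 in CN-10 and at 10.39, 10.68, 10.51 and 10.71 in 4-18. It was at 12.63, 11.63, 12.07 and 12.15 in 3-44 and at 12.34, 12.25, 12.82 and 12.79 in shRNA3T. On this probe the 4-18 arrays lay below all others, and Cyp4a8 fell there 2.34-fold (log2 -1.23 ± 0.21 SE, adjusted p = 0.000467, limma), with 0.32 in 3-44 and 0.75 in shRNA3T. The dimmer probe (chr5:135547750-135547809, minus strand) was at 7.28, 7.08, 7.20 and 7.04 in CN-10 and at 7.28, 7.50, 7.68 and 7.62 in 4-18. It was at 8.46, 8.09, 8.22 and 7.84 in 3-44 and at 8.68, 8.17, 8.52 and 8.77 in shRNA3T. This probe rose 2.01-fold in 3-44 (log2 1.01, adjusted p = 0.000416), at the limit, and 2.61-fold in shRNA3T (log2 1.38, adjusted p = 1.5e-05). The call in 3-44 was lost without CN-10 replicate 2 (0.98), without CN-10 replicate 4 (0.97), without 3-44 replicate 1 (0.90) or without 3-44 replicate 3 (0.98). On rn4 the Cyp4a2 probe lies between both Cyp4a8 probes, so which transcript the dimmer one reads is uncertain. Cyp4a3 was near background, at 0.61 in shRNA3T.

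In the Cyp4f subfamily, which inactivates leukotrienes and hydroxylates long-chain fatty acids, 2 genes fell and 1 rose in at least 1 group, and the medians of the 8 genes were 0.03, 0.05 and 0.07 in 4-18, 3-44 and shRNA3T. Cyp4f1 (chr7:13589691-13589750, minus strand) was at 17.16, 17.35, 17.43 and 17.44 in CN-10 and at 15.84, 15.98, 16.17 and 16.18 in 4-18. It was at 16.27, 17.02, 16.94 and 16.89 in 3-44 and at 16.66, 16.26, 16.20 and 16.03 in shRNA3T. All silenced arrays lay below all CN-10 arrays. Cyp4f1 fell 2.47-fold in 4-18 (log2 -1.30 ± 0.16 SE, adjusted p = 2.87e-05, limma) and 2.08-fold in shRNA3T (log2 -1.05, adjusted p = 0.000446), and the latter call was lost without shRNA3T replicate 4 (-0.97). The difference in 3-44 was -0.56 (adjusted p = 0.0446).

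Cyp4f40 (chr7:13281546-13281605, plus strand) was at 12.41, 12.03, 12.38 and 12.42 in CN-10, at 11.38, 11.47, 11.54 and 11.43 in 4-18, at 12.62, 12.25, 12.40 and 12.48 in 3-44 and at 10.98, 9.86, 11.39 and 11.30 in shRNA3T. Replicate 2 of shRNA3T was the lowest of all arrays, and 4-18 and shRNA3T lay below the other groups. Cyp4f40 fell 2.69-fold in shRNA3T (log2 -1.43 ± 0.24 SE, adjusted p = 0.00111, limma), with -0.85 in 4-18 and 0.13 in 3-44, and was called higher in 3-44 than in shRNA3T by 1.56. Cyp4f39, an ω-hydroxylase known from skin, was not well above background in CN-10 and was at least 1.98-fold higher in 4-18 (fitted log2 1.02, adjusted p = 2.02e-05). Its call was lost without CN-10 replicate 2 (1.00) or without 4-18 replicate 3 (0.98). The largest differences of Cyp4f5, Cyp4f6 and Cyp4f17 from CN-10 were 0.53, -0.21 and 0.39, and none was called.

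Cyp2s1, a P450 of epithelia that acts on eicosanoids, fell in 4-18 by 2.43-fold on its brightest probe (log2 -1.28 ± 0.14 SE, adjusted p = 7.24e-06, limma). It ranged there from 6.59 to 7.16 against 7.85 to 8.42 in CN-10, and read -0.82 in 3-44 and -0.91 in shRNA3T. The other 2 Cyp2s1 probes, both dimmer, read -0.26 and -0.13 in 4-18 and were not called. Cyp4b1, an ω-hydroxylase known from lung, was at least 1.80-fold lower in 4-18 than in shRNA3T (adjusted p = 0.000224), and was not called against CN-10.

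Of the bile acid enzymes, Cyp27a1 and Cyp8b1 changed. Cyp27a1, the mitochondrial sterol 27-hydroxylase of the alternative bile acid pathway, has its probe at chr9:74067772-74067831 on the plus strand. Its level was 10.40, 9.98, 9.98 and 10.34 in CN-10 and 11.18, 10.68, 10.57 and 11.25 in 4-18. It was 10.69, 10.49 and 10.74 in 3-44, where replicate 1 had an outlier flag and was set aside, and 11.71, 11.61, 11.38 and 11.90 in shRNA3T. All silenced arrays lay above all CN-10 arrays, and shRNA3T was the highest group. Cyp27a1 rose 2.77-fold in shRNA3T (log2 1.47 ± 0.17 SE, adjusted p = 4.49e-05, limma), with 0.74 in 4-18 (adjusted p = 0.0046) and 0.46 in 3-44 (adjusted p = 0.155), and it was called lower in 3-44 than in shRNA3T by 1.01. Cyp8b1, the sterol 12α-hydroxylase that sets the share of cholic acid, ranged from 6.42 to 6.67 in CN-10 and from 7.34 to 7.82 in 4-18, and rose 2.13-fold there (log2 1.09 ± 0.12, adjusted p = 7.5e-06). It was well above background on 3 of 4 arrays in each group and read 0.02 in 3-44 and 0.16 in shRNA3T. Cyp7a1, the rate-limiting enzyme of bile acid synthesis, was well above background on 2 arrays of CN-10, none of 4-18 and 3 each of 3-44 and shRNA3T, and read -0.10, 0.09 and 0.03.

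Cyp27b1, the mitochondrial 1α-hydroxylase that makes active vitamin D, rose 2.33-fold in 4-18 (log2 1.22 ± 0.14 SE, adjusted p = 1.33e-05, limma). It ranged from 8.95 to 9.14 in CN-10, from 9.81 to 10.48 in 4-18, from 8.61 to 9.01 in 3-44 and from 9.47 to 9.91 in shRNA3T. The 4-18 arrays overlapped with shRNA3T, which was not called against CN-10 (0.57, adjusted p = 0.0142). Cyp24a1, which degrades active vitamin D, was detected on no array. None of the 6 genes of steroid hormone synthesis was called in any comparison, and the values of Cyp21a1, the adrenal 21-hydroxylase, were -0.01, -0.03 and -0.09. Cyp20a1 read -0.26, 0.11 and -0.14.

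P450 genes also differed between the silenced groups. Between the 2 clones, 12 genes (15.8%) were called beside 5.33% of all gene names, 6 higher in 4-18 (2.21% of all gene names) and 6 lower (3.12%). With normexp and the 75th percentile the split was 36 and 4, and with the series values 4 and 10. Higher in 4-18 were Cyp1a2, Cyp1b1, Cyp2c7, Cyp2f4, Cyp8b1 and Cyp27b1, and lower were Cyp2d1, Cyp2d2, Cyp2t1, Cyp3a18, Cyp3a62 and Cyp4a8. Between 4-18 and shRNA3T, 12 genes (15.8%) were called beside 4.86%. Only Cyp1a2 was higher in 4-18, where 1.99% of all gene names were, and 11 were lower, where 2.87% were. This balance depended on the scaling, and turned to 43 higher and 4 lower with normexp and the 75th percentile. It was 10 higher and 14 lower with the processed signal, 2 and 13 with the series values and 1 and 10 with cyclic loess. The 11 lower genes of the main analysis were Cyp2b2, Cyp2b3, Cyp2c23, Cyp2d2, Cyp3a9, Cyp3a18, Cyp3a62, Cyp4a1, Cyp4a2, Cyp4a8 and Cyp4b1.

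Between 3-44 and shRNA3T, which carry the same shRNA3, 10 genes (13.2%) were called beside 2.21% of all gene names. Cyp3a18 and Cyp4f40 were higher in the clone, beside 0.986% of all gene names, and 8 were lower, beside 1.22%: Cyp2b2, Cyp2b3, Cyp2c7, Cyp2d4, Cyp2f4, Cyp3a9, Cyp4a1 and Cyp27a1. The 2 groups differ in length and dose of selection, in being a clone or a pool, and in slide, and these cannot be told apart.

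Among 23 transcription factors and receptors on the array that are known to regulate P450 genes, 7 rose in 4-18, 2 in 3-44 and 2 in shRNA3T, and none fell, beside the 2.79%, 0.746% and 1.23% of all gene names that rose. The counts depended on the scaling, most in 4-18. With the processed signal 4 rose in 4-18 beside 7.16% of all gene names, and with normexp and the 75th percentile 11 rose beside 45.7%. With the series values 1 rose and 1 fell in 4-18, beside 0.864% that rose. In 3-44 the processed signal gave 3 that rose (beside 0.936%) and 1 that fell, and the series values gave 1 that rose (beside 0.221%). In shRNA3T 4 rose with the processed signal (beside 1.9%). The medians of the list were 0.61, 0.23 and 0.21, beside 0.00, -0.01 and -0.01 over all gene names. Dbp, a circadian PAR bZIP factor that drives several P450 genes in liver, rose in all 3 groups, by 1.51 in 4-18 (limma, adjusted p = 5.06e-07). The rise of Dbp was 1.00 in the 3-44 clone (adjusted p = 0.000117) and 1.18 in the pool (adjusted p = 1.64e-05). Its relative Tef rose by 1.59 in 4-18 and 1.18 in shRNA3T, and the nuclear receptor Nr5a2 (LRH-1), which controls bile acid genes, by 1.39 in 4-18 and 1.07 in 3-44. In 4-18 also Nr0b2 (SHP, a repressor of bile acid synthesis) rose by 1.25, Rara (a retinoic acid receptor) by 1.24, Ppara (PPARα) by 1.15 and Nr1i2 (the pregnane X receptor) by 1.03. In the direct comparisons Rara was called higher in 4-18 than in 3-44 (1.09) and shRNA3T (1.02), and Tef higher than in 3-44 (1.01). Nr0b2, Ppara and Nr1i2 were not called between 4-18 and the other silenced groups. The constitutive androstane receptor Nr1i3 read 0.03, 0.15 and -0.14. The letters TTATGNAA, the core read by Dbp and Tef, were in 5 of the 59 P450 promoters and in 3.28% of all promoters, and of the 25 called genes with an entry only Cyp2b2 and Cyp2b3 held them. TATAAA was in 12.9% of all promoters and 17 of the 59, and GCGTG in 25.9% and 16 of the 59.

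Of 20 genes for partners and heme supply that P450 enzymes need, 3 were called in 4-18 against CN-10, beside 6.52% of all gene names, and none in 3-44 or shRNA3T. All 9 electron donors and membrane partners were well above background on all 16 arrays, and their median log2 fold changes were -0.05, 0.24 and 0.01 in 4-18, 3-44 and shRNA3T. Pgrmc1, a heme-binding membrane partner, was the only one called against CN-10, lower in 4-18 by 1.27 and 1.04 on 2 of its dimmer probes. Its brightest probe averaged 13.80 in CN-10, with replicate 1 set aside, and 13.14 in 4-18, with overlap, and was not called. Por, the electron donor of the microsomal P450s, read -0.10 in 4-18, 0.62 in 3-44 and 0.94 in shRNA3T and was called only between 4-18 and shRNA3T (-1.04, adjusted p = 0.00112, limma). Of 11 genes of heme synthesis and breakdown, Hmox1, the inducible heme oxygenase, rose by 2.18 in 4-18 (adjusted p = 1.39e-07). Blvrb, a biliverdin reductase, fell by 1.34 in 4-18 on 1 dimmer probe, and no gene of heme synthesis was called against CN-10. The medians of these 11 genes were -0.12, 0.08 and 0.07.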

How the data were processed

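Cytochrome P450 genes were measured on 16 one-color Agilent rat arrays, 4 per group. The authors read the scans with Feature Extraction 10.7.3.1, whose probe coordinates are those of rn4. The deposited intensity values are the mean and median spot signal, the local background and the software's processed signal, on a linear scale and not normalized between arrays. The table of log2 values that the authors deposited for the whole series had lost its decimal points. With these put back it equalled log2 of the normexp-corrected median signal (largest difference 4e-11), not scaled between arrays, and it served as an alternative only.

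The analysis used limma 3.58.1 in R 4.3.3. Normexp (offset 50) over all spots removed the background, and quantile normalization without control spots scaled the arrays. Outlier-flagged spots were dropped, and replicate spots of 1 probe averaged. The limma model had 1 mean for each of the 4 groups, moderated by empirical Bayes, with Benjamini-Hochberg adjustment over all probes. A probe was well above background where over 50% of its spots were. A gene was called if any probe passed a 2-fold limit with an adjusted p under 0.05 and none passed the other way, and was represented by its brightest probe. Bounds were computed where no array of a group was well above background. Single probes had an exact permutation test as well, two-sided, whose smallest p for 4 against 4 arrays is 0.0286. The number of arrays limits the precision. No P450 spot was saturated. The limma fit and the calls of single probes were also run on simulated log2 values with known changes. Background correction, scaling, removal of flagged spots, averaging of spots, gene calls and bounds were not part of that run.

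The set of P450 genes as a subject and the gene lists were chosen with earlier results of these data known. Named are all P450 genes called in any comparison or well above background on all arrays, Cyp1a1, Cyp2e1, Cyp3a2, Cyp7a1, Cyp8b1 and Cyp27a1 whatever their values, and the pathway genes called against CN-10. Further genes are named as neighbours or family members, chosen after their values were seen. Values array by array are given for the 12 called genes with the largest differences from CN-10 and for Cyp4f1 and the second Cyp4a8 probe. The probe accessions of 77 of 93 probes were in the RefSeq table, 76 of them under the same symbol. The alternatives were other background corrections and scalings, a filter on dim probes, array weights, a 1.5-fold limit, the replicate number as a block and leaving out each array. Tiparp and Rarb, each on a gene list, were not among the gene names used here.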

Additional observations from a re-analysis of the deposited data

Results flagged for a closer look

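The probes tested were those called in any comparison and the brightest probe of each P450 gene named by rule. In 14 of 155 groups of 4 values, 1 array stood apart from the other 3. This was judged by the gap of that array to the nearest value, divided by the range of the group. Chance alone flags about 1 in 20 groups, here 7.8. The share was 0.976 for Cyp2d5 in 4-18, where replicate 2 was at 13.74 and the next array at 13.09, and 0.937 for Cyp2d5 in shRNA3T, with replicate 1 highest. In CN-10 the lowest array stood apart for Cyp4a1 (0.928, replicate 4), Cyp4f40 (0.920, replicate 2), Cyp2c7 (0.882, replicate 3) and Cyp2d4 (0.838, replicate 3). In 4-18 it did so for the second Cyp2b3 probe (0.948, replicate 1), Cyp27b1 (0.835, replicate 4) and Cyp2f4 (0.832, replicate 2), and the highest array did for Cyp3a9 (0.847, replicate 4). In 3-44 the lowest array stood apart for the brighter Cyp2b3 probe (0.918, replicate 4) and for Cyp2b2 (0.842, replicate 1). In shRNA3T the lowest array stood apart for Cyp1a2 (0.918, replicate 2) and the highest for Cyp2s1 (0.917, replicate 2). The arrays named are spread over all 4 groups and all 4 replicate numbers.

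The same contrast with CN-10 was called in opposite directions for 2 probes, and the direct comparison of the silenced groups was called as well. Cyp3a18 fell in 4-18 and rose in 3-44, and 4-18 was below 3-44 by -3.23 on the fitted log2 scale, where its 4-18 value is a bound. The fall in 4-18 was not called with the series values, cyclic loess or normexp scaled to the 75th percentile, and its range over all alternatives was -3.81 to -0.35. Cyp1a2 rose in 4-18 and fell in shRNA3T, with 4-18 above shRNA3T by 3.21. Each of these groups had its own slide, and the part of the slide was not tested.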

How the results depend on the processing

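Of the 35 pairs of a called probe and a comparison with CN-10, 15 stayed called under all 28 alternatives and 20 lost the call in at least 1, and none reversed. The 15 are Cyp1a2 in 4-18 and shRNA3T, Cyp27a1, Cyp2c7 (3 pairs), Cyp2d1 (2), Cyp2d4 in shRNA3T (2 probes), Cyp2d5 in 3-44 and shRNA3T, Cyp4a2, Cyp4a8 in shRNA3T and Cyp4f1 in 4-18. Most often lost were Cyp3a62 in 3-44 (9 alternatives), Cyp4a8 in 3-44 (6) and Cyp4f1 in shRNA3T (6). Of 82 pairs not called, 32 were called in at least 1 alternative. The counts below are in the order 4-18, 3-44 and shRNA3T against CN-10, then 4-18 against 3-44, 4-18 against shRNA3T and 3-44 against shRNA3T, where the main values are 13, 7, 13, 12, 12 and 10, beside 6.52%, 1.57%, 2.49%, 5.33%, 4.86% and 2.21% of all gene names called. With the processed signal scaled to the 75th percentile they were 27, 13, 25, 27, 24 and 18 (beside 15%, 3.14%, 5.01%, 12.1%, 18.7% and 3.86%). With the median of each comparison subtracted as well (added after seeing the data) they were 29, 13, 25, 28, 24 and 17. These stand beside 16.3%, 3.06%, 5.02%, 13.1%, 20.3% and 4.02% of all gene names. With normexp and the 75th percentile they were 51, 5, 11, 40, 47 and 7 (beside 48.3%, 1.25%, 2.19%, 40.7%, 52.9% and 1.90%), with the authors' series values 10, 3, 9, 14, 15 and 4 (beside 3169, 196, 393, 2525, 2823 and 340 of all gene names, or 12.1% in the first and 1.29% in the last), and with a 1.5-fold limit 20, 11, 22, 17, 22 and 17 (beside 16.6%, 5.29%, 7.93%, 14.6%, 13.8% and 6.89%). A further count (added after seeing the data) left out 4-18 replicate 2, the array with the fewest probes above background. It took only genes well above background on all 16 arrays, and gave 9, 3, 7, 7, 5 and 6. That filter left 20 P450 genes, and the share of all gene names was not computed under it. With the Cyp2d1 probe left out (also added) they were 13, 6, 12, 11, 12 and 10. Leaving out each array in turn gave 12 to 14, 5 to 7, 12 to 14, 11 to 13, 10 to 12 and 8 to 11. Beside these, 1629 to 1870, 367 to 442, 588 to 711, 1353 to 1579, 1235 to 1433 and 512 to 608 of all gene names were called. The lowest count of 5 for 3-44 came without CN-10 replicate 2 or without 3-44 replicate 1.

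Scaling moved the balance of higher and lower calls. The median of all probes in 4-18 against CN-10 was 0.01 in the main analysis, 0.20 with the processed signal, 0.86 with normexp and the 75th percentile and 0.15 with the series values, and the share of called P450 genes that were higher was 69.2%, 55.6%, 98.0% and 40.0%. For 4-18 against 3-44 that share was 50%, 44.4%, 90.0% and 28.6%, with 36.4% under cyclic loess, and for 4-18 against shRNA3T 8.33%, 41.7%, 91.5% and 13.3%. For 3-44 against CN-10 it was 85.7%, 76.9%, 80.0% and 66.7%, and for 3-44 against shRNA3T 20%, 33.3%, 28.6% and 25%. Under normexp and the 75th percentile Cyp4b1 in 4-18 turned from -0.01 to 1.15 and Cyp7a1 from -0.10 to 1.06. Neither gene was well above background on any 4-18 array, and the median of all probes was 0.86 under that scaling. The causes were not tested. The replicate number is also the position on the slide in every group. Same-numbered arrays of different groups correlated in their deviations from -0.116 to 0.483 (median 0.150 over 24 pairs), against a median of -0.03 over 72 pairs of different numbers. As not every pair was over 0.1 and the labels name nothing shared, the numbers were not taken as pairs, although 10 of 16 arrays correlated best with their own number, a hint from the data of a shared effect. With the replicate block the counts were 13, 7, 13, 12, 12 and 9. The low signal of the 4-18 arrays limits what can be measured in that group.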
